A study of Mus with 96 samples.

Results

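The genes described here are 10 members of the mouse Cyp2c family of cytochrome P450 enzymes, Cyp2c29, Cyp2c37, Cyp2c38, Cyp2c39, Cyp2c40, Cyp2c44, Cyp2c50, Cyp2c54, Cyp2c55, and Cyp2c70, out of 55487 genes in the deposited table. They were selected by name, with their levels by genotype, diet, and time of day already known, so those levels are given as a description without a p-value, while sex, which the selection did not use, was tested. Liver mRNA of 96 mice was measured by BRB-seq, a barcoded method that reads the 3′ end of each transcript. In Hep-Bmal1KO mice Cre under the albumin promoter deletes the floxed clock gene Bmal1 in hepatocytes but not in the other liver cells, and the Hep-Bmal1WT littermates carry the same floxed alleles without Cre on the same C57BL/6J background. Young adult mice of both sexes received chow or cdHFD, a choline-deficient high-fat diet that induces steatohepatitis, for a short term under a light-dark cycle, with 24 mice for each genotype and diet and 4 at each of ZT 2, 6, 10, 14, 18, and 22, hours counted from lights on.

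Cyp2c enzymes sit in the membrane of the endoplasmic reticulum, where they receive electrons from P450 oxidoreductase and oxidize drugs, steroids, and fatty acids. Several are epoxygenases that turn arachidonic acid into epoxyeicosatrienoic acids, lipid mediators that soluble epoxide hydrolase breaks down, and others mainly hydroxylate it to HETEs. Many members are inducible through the nuclear receptors CAR and PXR, several are expressed at different levels in male and female rodent liver under growth hormone, and Cyp2c70 hydroxylates bile acids to make the muricholic acids of mice.

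In the RefSeq annotation of GRCm38.p6 9 of the 10 genes lie within 1.18 Mb of chromosome 19, from position 39006940 at Cyp2c55 to 40187286 at Cyp2c70. Cyp2c44, which the count table lists under its other symbol Cyp2c23, lies 3.82 Mb further along, at 44005022 to 44029256. The interval annotated for Cyp2c39, 39347346 to 39569568, encloses that of Cyp2c38, 39389556 to 39463103. The members are close paralogs, and the entries for ambiguous and multiply aligned reads in the table are all 0, so how reads shared between them were assigned is not known, and a level of a single member may hold reads of another.

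The reads assigned to genes numbered 1861740 to 9718615 in a library, and 3 reads equalled 0.267 to 1.78 CPM, the TMM-scaled count relative to library size. All 10 members passed the filter of at least 100 reads over the 96 libraries, but Cyp2c39 had at most 34 reads in any library and 0 in 6 of them. Bmal1 itself, listed as Arntl, was read in both genotypes, with means by ZT on chow of 0.748 to 20.2 CPM in Hep-Bmal1WT and 5.74 to 9.83 CPM in Hep-Bmal1KO. Reads of the 3′ end do not cover the deleted part, so they do not show the deletion itself. Arntl is also in the list of clock genes used next. On a list of clock genes and on 20 other genes, chosen at the other ZTs for their genotype difference, 7 libraries lay nearer the opposite genotype than their label, 4 labelled Hep-Bmal1WT and 3 labelled Hep-Bmal1KO, and genotype and diet groups below follow the labels. For sex, 95 libraries matched their label on Xist and Y-linked genes, and 1 labelled female (cdHFD Hep-Bmal1KO, ZT 10) had neither signal. In the library names each genotype and diet has its own range of columns, so any column effect cannot be told apart from them. All 5 hepatocyte markers were read in every group, and their summed level went from 172414 ± 34488 CPM (SD, n = 24) in chow Hep-Bmal1WT to 88971 ± 11289 in cdHFD Hep-Bmal1WT.

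The summed level of the 10 members was 3834 ± 999 CPM (SD, n = 24, as for all group values below) in chow Hep-Bmal1WT livers and 5379 ± 1020 in chow Hep-Bmal1KO livers. On cdHFD the sums were 959 ± 313 and 1005 ± 348 CPM. The lowest chow Hep-Bmal1WT library, at 2504 CPM, lay above the highest cdHFD library of either genotype, at 1929 CPM. Because the method reads transcript ends, a member's share is a share of reads and was not divided by transcript length.

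**Figure D1:**
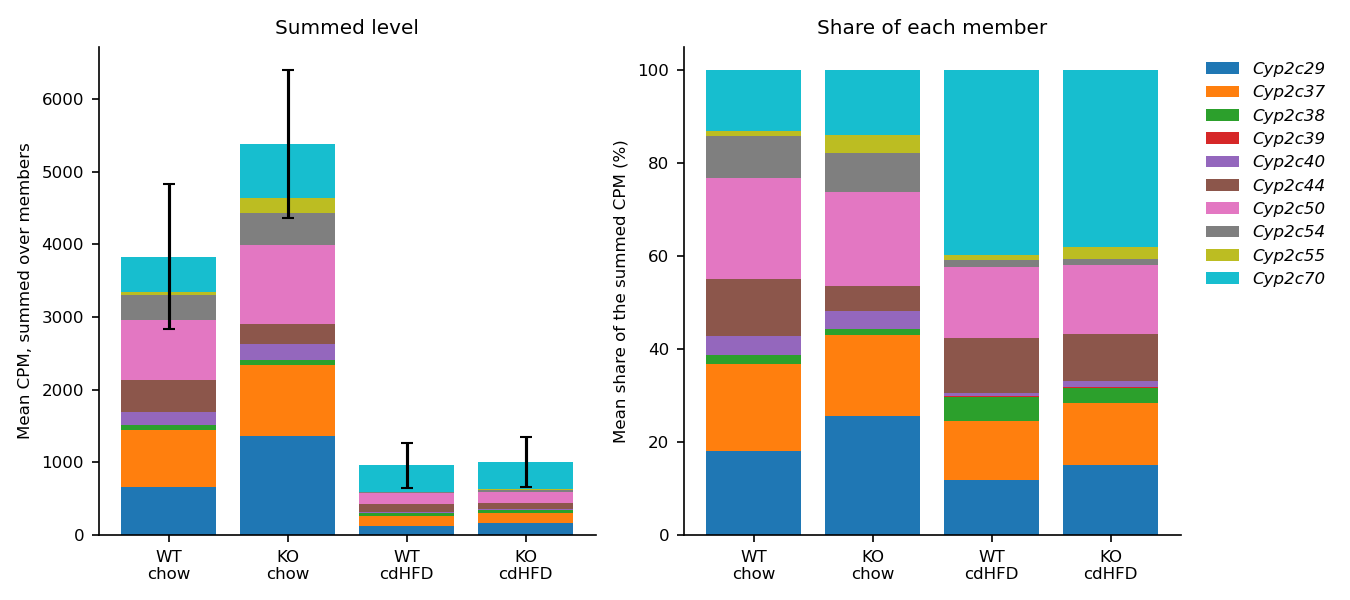
Summed level of the 10 Cyp2c members (left, mean CPM, bars stacked by member, error bars SD of the sum over 24 libraries) and mean share of each member in that sum (right, %) for each genotype and diet. The sum falls from 3834 to 959 CPM between chow and cdHFD in Hep-Bmal1WT, and the share of Cyp2c70 goes from 13% to 39.7%.

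The make-up of the sum differed between diets. Cyp2c50, Cyp2c37, and Cyp2c29 held 21.9% ± 4.20, 18.6% ± 8.63, and 18.1% ± 7.95 of it in chow Hep-Bmal1WT, and Cyp2c70 held 13% ± 5.22. On cdHFD Cyp2c70 held 39.7% ± 9.54 in Hep-Bmal1WT and 38.1% ± 7.90 in Hep-Bmal1KO. The share of the epoxygenase Cyp2c54 went the other way, from 8.96% ± 1.88 to 1.55% ± 0.477 in Hep-Bmal1WT and from 8.25% ± 1.33 to 1.47% ± 0.677 in Hep-Bmal1KO. Between genotypes on chow the share of Cyp2c44 was 12.2% ± 5.05 in Hep-Bmal1WT and 5.39% ± 2.61 in Hep-Bmal1KO, that of Cyp2c29 was 18.1% ± 7.95 and 25.7% ± 7.94, and that of Cyp2c55 was 1.16% ± 1.78 and 3.86% ± 1.59.

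Across diets, 9 of 10 members were lower on cdHFD in each genotype by the criterion used for all genes, where 27.3% of the 15548 genes tested were called lower in Hep-Bmal1WT and 29.6% in Hep-Bmal1KO. Nothing is read from these counts, since level by diet was part of the selection. The median log2 fold change of the members was -2.20 in Hep-Bmal1WT and -2.85 in Hep-Bmal1KO, with medians of 0.01 and 0.02 over all genes. Without the TMM factors, that is with library totals alone, the median of all genes in these comparisons moves by 0.49 in Hep-Bmal1WT and 0.48 in Hep-Bmal1KO on the log2 scale, so the folds below are relative to the TMM scale.

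The epoxygenase Cyp2c54 had the largest fold of the 10. Its lowest, median, and highest libraries were 124, 343, and 538 CPM in chow Hep-Bmal1WT and 6.96, 14.0, and 27.5 CPM in cdHFD Hep-Bmal1WT, so the diets did not overlap. This was a log2 fold change of -4.63 (SE 0.16), 24.7-fold lower, while in Hep-Bmal1KO, where the means were 447 ± 126 and 14.7 ± 8.54 CPM, it was -5.01 (SE 0.19). Cyp2c50, a related epoxygenase, went from 823 ± 198 to 147 ± 59.0 CPM in Hep-Bmal1WT (log2 -2.51, SE 0.13) and from 1090 ± 228 to 154 ± 64.9 CPM in Hep-Bmal1KO (log2 -2.88, SE 0.17). Cyp2c44, also an epoxygenase, went from 432 ± 115 to 107 ± 24.1 CPM (log2 -1.98, SE 0.10) and from 272 ± 90.5 to 89.98 ± 22 CPM (log2 -1.57, SE 0.11). For Cyp2c44, Cyp2c50, and Cyp2c54 the 24 chow and the 24 cdHFD libraries did not overlap in either genotype. The share of all genes without such overlap was not computed, here or for the overlaps below, so nothing is read from them.

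Cyp2c29, an abundant and CAR-inducible epoxygenase, had 249, 640, and 1387 CPM as its lowest, median, and highest values in chow Hep-Bmal1WT, against 24, 108, and 377 CPM on cdHFD. The log2 fold change was -2.42 (SE 0.19) in Hep-Bmal1WT and -3.15 (SE 0.19) in Hep-Bmal1KO, and the diets did not overlap at any of the 6 ZTs, although they did over all 24 libraries. Cyp2c38, an epoxygenase of lower abundance, went from 74.5 ± 35.6 to 46.5 ± 13.8 CPM in Hep-Bmal1WT (log2 -0.65, SE 0.17) and from 71.9 ± 49.3 to 32.6 ± 14.2 CPM in Hep-Bmal1KO (log2 -1.15, SE 0.26), and the diets overlapped at every ZT. In Hep-Bmal1WT it lay outside the criterion without the TMM factors (-0.16, SE 0.18), where 7 members were called in place of 9. All genes called in either direction were then 72.4% in place of 55.7%. In males alone Cyp2c38 lay outside the criterion in both genotypes (-0.23, SE 0.20, and -0.19, SE 0.19). Cyp2c39, which also oxidizes retinoic acid, had group means of 1.68 to 2.53 CPM and lay outside the criterion, with a log2 fold change of -0.51 (SE 0.29) in Hep-Bmal1WT and -0.61 (SE 0.36) in Hep-Bmal1KO. In females alone it was lower on cdHFD and inside the criterion, at -1.06 (SE 0.25) and -1.05 (SE 0.23), and in males alone it was outside it, at 0.74 (SE 0.35) and 1.06 (SE 0.55).

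Among the members that mainly make HETEs, Cyp2c37 went from 778 ± 497 to 137 ± 117 CPM in Hep-Bmal1WT (log2 -2.57, SE 0.31) and from 972 ± 485 to 145 ± 96.5 CPM in Hep-Bmal1KO (log2 -2.83, SE 0.27). Cyp2c40 had a log2 fold change of -4.51 (SE 0.65) in Hep-Bmal1WT, with means of 183 ± 183 and 8.45 ± 9.43 CPM, and of -3.97 (SE 0.56) in Hep-Bmal1KO. Its SD equals its mean because males and females differ widely, as given below. Cyp2c55 had log2 fold changes of -1.41 (SE 0.37) in Hep-Bmal1WT and -3.20 (SE 0.24) in Hep-Bmal1KO. The bile acid hydroxylase Cyp2c70 had the smallest called folds, -0.41 (SE 0.10) in Hep-Bmal1WT and -1.02 (SE 0.09) in Hep-Bmal1KO, and the first of these became 0.09 without the TMM factors and lay outside the criterion in males alone (-0.26, SE 0.14). Cyp2c55 in Hep-Bmal1WT lay outside it in females alone (-0.61, SE 0.40).

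**Figure D2:**
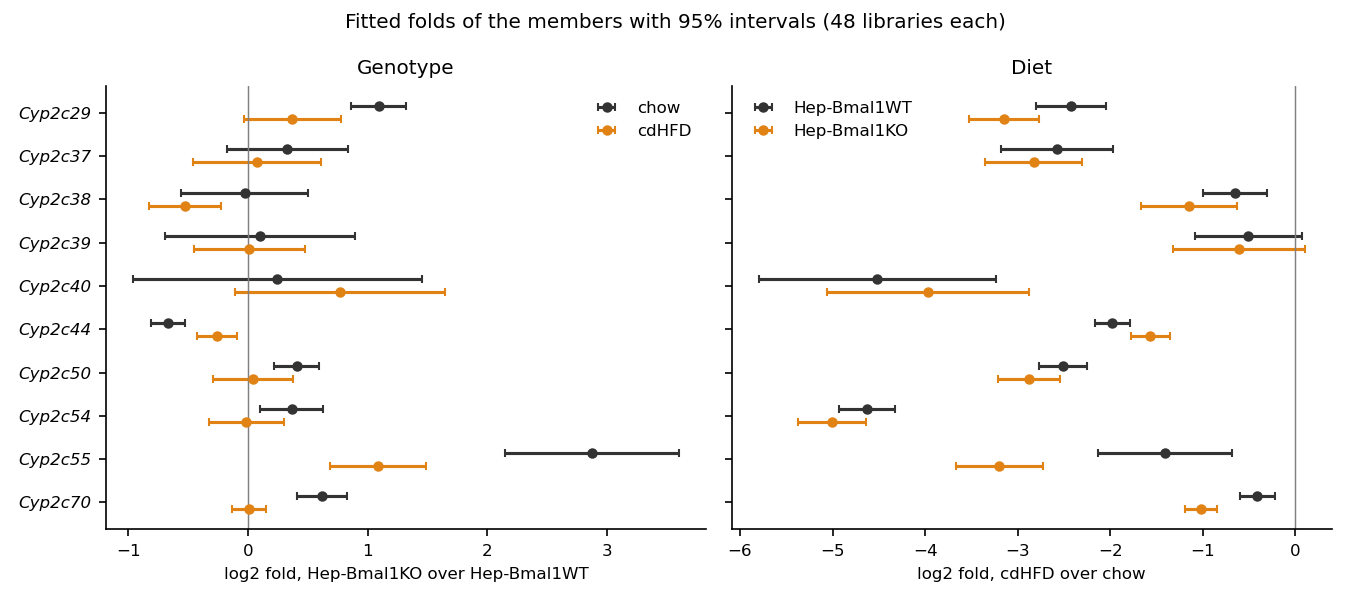
Fitted log2 fold changes of the 10 members with 95% intervals, for genotype within each diet (left, Hep-Bmal1KO over Hep-Bmal1WT) and for diet within each genotype (right, cdHFD over chow), 48 libraries in each fit. On the left Cyp2c55 stands furthest to the right, at 2.88 on chow, and Cyp2c44 lies below 0 on both diets; on the right Cyp2c54 and Cyp2c40 stand furthest to the left.

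Markers of other liver cells moved with the diet. All 5 markers of recruited macrophages were higher on cdHFD in both genotypes, and their summed level went from 16.2 ± 3.80 to 205 ± 36.6 CPM in Hep-Bmal1WT (range 10.1 to 24.4 against 124 to 291) and from 15.1 ± 4.84 to 304 ± 76.9 CPM in Hep-Bmal1KO. All 5 Kupffer cell markers and all 5 stellate cell markers were higher too. In each genotype 4 of 5 hepatocyte markers, 5 of 6 pericentral markers, and 5 of 6 periportal markers were lower. The remaining hepatocyte and periportal markers were higher in each genotype, and the remaining pericentral marker was higher in Hep-Bmal1WT. Of 5 cholangiocyte markers 2 were higher in Hep-Bmal1WT and 3 in Hep-Bmal1KO. Of 4 endothelial markers 2 were higher and 1 was lower in each genotype. The median log2 fold change of the hepatocyte markers was -1.13 in Hep-Bmal1WT and -0.86 in Hep-Bmal1KO. Fewer hepatocytes and less RNA of these genes per hepatocyte cannot be told apart in whole liver, and the part of the cell make-up in the members' differences was not tested.

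On chow 4 members were higher and 1 was lower in Hep-Bmal1KO by the criterion applied to all genes, of which 7.08% were called higher and 5.45% lower. As with diet, the selection used these levels and nothing is read from the counts. The members' median log2 fold change was 0.35 and that of all genes -0.01.

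Cyp2c55, which hydroxylates arachidonic acid and is strongly inducible through CAR and PXR, had the largest difference. It had a mean of 41.9 ± 69.9 CPM in chow Hep-Bmal1WT and 207 ± 86.2 in chow Hep-Bmal1KO, with a log2 fold change of 2.88 (SE 0.37). The lowest, median, and highest libraries were 1.72, 18, and 302 CPM in Hep-Bmal1WT and 14.7, 212, and 380 CPM in Hep-Bmal1KO. The ranges therefore overlapped through a few libraries at each end. At ZT 22 the 4 Hep-Bmal1WT libraries had 10.4, 12.1, 1.72, and 9.13 CPM and the 4 Hep-Bmal1KO libraries 129, 141, 167, and 263 CPM, a 21.0-fold ratio of means. At ZT 6 the Hep-Bmal1WT libraries had 199, 302, 13.7, and 28.4 CPM and the Hep-Bmal1KO libraries 294, 239, 290, and 34.6 CPM, a ratio of 1.58.

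Several of the extreme values of Cyp2c55 were in libraries that lie nearer the opposite genotype. The Hep-Bmal1WT library at 302 CPM and the one at 116 CPM at ZT 18 are among these, as are the Hep-Bmal1KO libraries at 34.6 CPM at ZT 6 and at 14.7 CPM at ZT 10. The Hep-Bmal1WT male at 199 CPM at ZT 6 is not. Without the 7 libraries the chow means were 26.7 ± 40.3 CPM (n = 22) and 223 ± 68.4 CPM (n = 22), the log2 fold change was 3.43 (SE 0.28), a 10.8-fold difference, and the genotypes did not overlap at 6 of 6 ZTs in place of 4.

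Cyp2c29 was the next member in order, with 662 ± 262 CPM in chow Hep-Bmal1WT and 1365 ± 431 in chow Hep-Bmal1KO. Its log2 fold change was 1.09 (SE 0.12), and it was 1.23 (SE 0.09) without the 7 libraries. The ratio of means was above 1 at all 6 ZTs, from 1.67 at ZT 6 to 2.88 at ZT 10, where the Hep-Bmal1WT libraries had 310, 366, 272, and 249 CPM and the Hep-Bmal1KO libraries 1406, 935, 263, and 847 CPM. The library at 263 CPM is 1 of the 7. Cyp2c70 had 491 ± 198 and 734 ± 190 CPM (log2 0.62, SE 0.11), and Cyp2c50 had 823 ± 198 and 1090 ± 228 CPM (log2 0.41, SE 0.10). Cyp2c54 lay outside the criterion with a log2 fold change of 0.36 (SE 0.13), and inside it without the 7 libraries, at 0.44 (SE 0.14).

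Cyp2c44 was the only member called lower in Hep-Bmal1KO on chow. It had 217, 398, and 642 CPM as its lowest, median, and highest values in Hep-Bmal1WT and 166, 245, and 584 CPM in Hep-Bmal1KO, with a log2 fold change of -0.67 (SE 0.07). At ZT 14 the Hep-Bmal1WT libraries had 506, 397, 509, and 504 CPM and the Hep-Bmal1KO libraries 209, 196, 241, and 276 CPM, a ratio of 0.481, and the ratio was below 1 at all 6 ZTs. The Hep-Bmal1KO library at 584 CPM, at ZT 10, is 1 of the 7, without which the log2 fold change was -0.77 (SE 0.06) and the genotypes did not overlap at 5 of 6 ZTs.

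**Figure D3:**
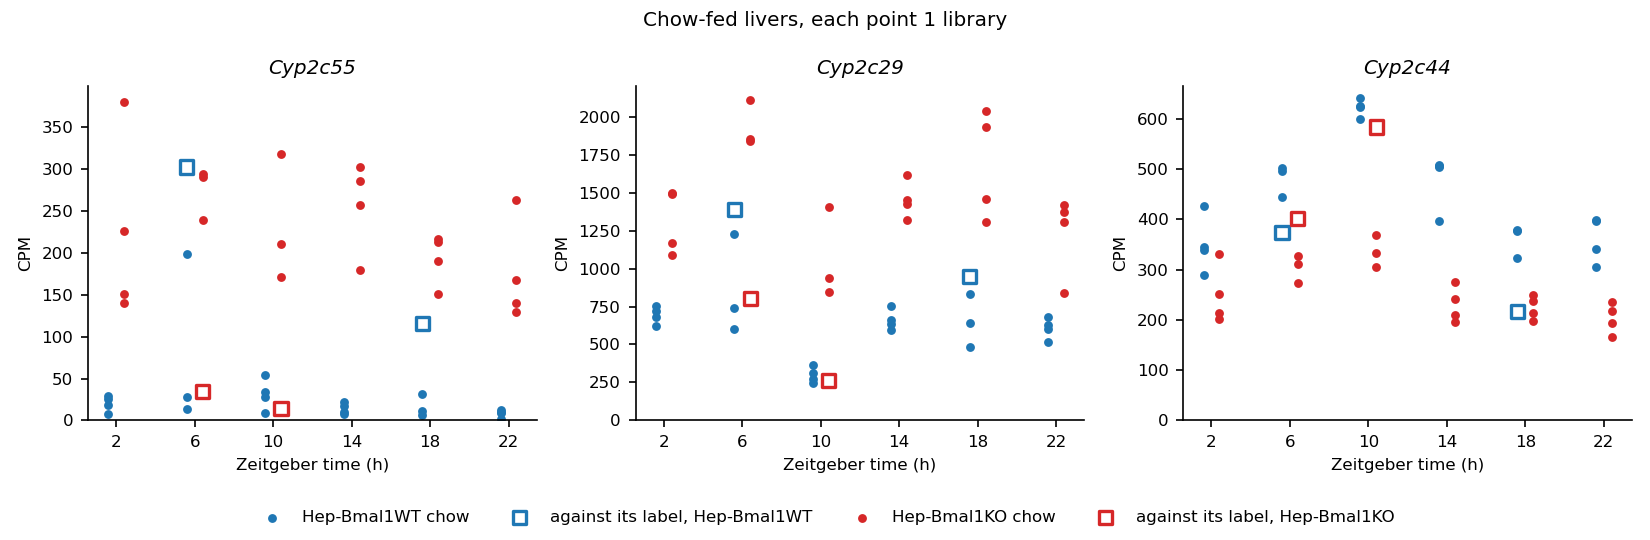
CPM of Cyp2c55, Cyp2c29, and Cyp2c44 on chow against zeitgeber time (h), each point 1 library, with open squares for the libraries nearer the opposite genotype than their label. Open squares of Hep-Bmal1WT lie among the Hep-Bmal1KO points, as at 302 CPM for Cyp2c55, and the reverse holds for those of Hep-Bmal1KO, as at 14.7 CPM.

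The remaining members on chow, Cyp2c37, Cyp2c38, Cyp2c39, and Cyp2c40, had log2 fold changes of 0.33, -0.03, 0.10, and 0.25 with SEs of 0.26, 0.27, 0.40, and 0.61. These 4 also had the widest gaps between sexes. With sex added to the fit 8 members were called in place of 5, and Cyp2c40 then had a log2 fold change of 0.77 (SE 0.21) and Cyp2c37 of 0.42 (SE 0.12). In males alone Cyp2c40 was at 1.66 (SE 0.30), Cyp2c38 at -0.80 (SE 0.16), and Cyp2c70 at 0.95 (SE 0.12), and 9 members were called. In females alone these 3 lay outside the criterion, at 0.19 (SE 0.10), 0.20 (SE 0.10), and 0.30 (SE 0.10), and 4 members were called. All genes called for genotype on chow in either direction were 12.5%, and 14.8% with sex in the fit, 11% in males alone, and 3.51% in females alone. The difference of the genotype folds between sexes on chow was not tested. Among liver cell markers 2 of 5 for cholangiocytes were higher in Hep-Bmal1KO on chow (median log2 0.58) and 1 of 5 for hepatocytes was lower. Of 6 pericentral markers 2 were higher and 1 was lower, and of 6 periportal markers 1 was lower. The summed pericentral level was 4380 ± 858 CPM in chow Hep-Bmal1WT and 5073 ± 833 in chow Hep-Bmal1KO. The part of these cells was not tested.

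On cdHFD 1 member was called higher and 2 were called lower in Hep-Bmal1KO, beside 4.75% and 4.92% of all genes. Cyp2c55 had 10.8 ± 6.27 CPM in Hep-Bmal1WT and 23.6 ± 18.7 in Hep-Bmal1KO (log2 1.08, SE 0.21). The members called lower were Cyp2c38, with 46.5 ± 13.8 and 32.6 ± 14.2 CPM (log2 -0.53, SE 0.15), and Cyp2c44, with 107 ± 24.1 and 89.98 ± 22 CPM (log2 -0.26, SE 0.08). Cyp2c44 lay outside the criterion without the TMM factors (-0.21, SE 0.08) and in males alone (-0.07, SE 0.10), and inside it in females alone (-0.46, SE 0.10). Cyp2c29, Cyp2c50, Cyp2c54, and Cyp2c70 had log2 fold changes of 0.37, 0.04, -0.02, and 0.01, with SEs of 0.21, 0.17, 0.16, and 0.07, and Cyp2c29 met the criterion with sex in the fit (0.40, SE 0.13). Markers of other cells also differed between genotypes on cdHFD, where 4 of 5 recruited macrophage markers (median log2 0.53), 4 of 5 stellate markers (0.28), and 3 of 5 cholangiocyte markers (0.84) were higher in Hep-Bmal1KO and 2 of 5 hepatocyte markers were lower (-0.14). Of 6 pericentral markers 1 was higher and 2 were lower, and the same held for 6 periportal markers. Of 5 Kupffer cell markers 1 was lower. The part of these cells in the members' differences was not tested.

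The difference between the genotype folds of the 2 diets, cdHFD minus chow, met the criterion for 3 members, beside 3.04% of all genes. It was -1.77 (SE 0.42) for Cyp2c55, -0.61 (SE 0.13) for Cyp2c70, and 0.41 (SE 0.12) for Cyp2c44 on the log2 scale. For each of them the genotype difference was smaller on cdHFD than on chow. Cyp2c29 had a difference of -0.72 (SE 0.25), outside the criterion, and -0.80 (SE 0.25) without the 7 libraries, inside it. Leaving out each replicate number in turn left 0 to 3 members called. In males alone the difference of Cyp2c55 lay outside the criterion (-1.29, SE 0.40), and in females alone those of Cyp2c44 (0.22, SE 0.15) and Cyp2c70 (-0.35, SE 0.14) did.

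A cosine with a period of 24 h was fitted to the 24 libraries of each genotype and diet, with an unadjusted p under 0.01 as the criterion and amplitudes on the log2-like scale of variance-stabilized values. It called 2 members in chow Hep-Bmal1WT and 1 in each of the other groups, beside 19.1% of all genes in chow Hep-Bmal1WT, 9.02% in chow Hep-Bmal1KO, 16.1% in cdHFD Hep-Bmal1WT, and 8.48% in cdHFD Hep-Bmal1KO. Time of day was part of the selection, so the counts are a description. Sex was not in the fit, so a gap between the sexes adds to the spread around it. Cyp2c40 in chow Hep-Bmal1WT thus had an amplitude of 0.43 with an SE of 0.84. The largest amplitude in that group was that of Cyp2c55, 0.89 (SE 0.39). It lay outside the criterion, and inside it without the 7 libraries nearer the opposite genotype (0.92, SE 0.31).

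Cyp2c44 met the criterion on chow in both genotypes, with an amplitude of 0.42 (SE 0.07) and a peak at ZT 9.86 (SE 0.65 h) in Hep-Bmal1WT and an amplitude of 0.43 (SE 0.08) and a peak at ZT 8.36 (SE 0.75 h) in Hep-Bmal1KO. Its mean was highest at ZT 10 in both, at 623 CPM in Hep-Bmal1WT, where the 4 libraries had 623, 600, 627, and 642 CPM, and at 398 CPM in Hep-Bmal1KO, where they had 334, 370, 584, and 305 CPM. On cdHFD its amplitude was 0.12 (SE 0.09) in Hep-Bmal1WT and 0.19 (SE 0.09) in Hep-Bmal1KO, and the criterion was not met.

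Cyp2c70 met it in chow Hep-Bmal1WT, with an amplitude of 0.49 (SE 0.13) and a peak at ZT 21.8 (SE 1.1 h). The 4 libraries had 217, 263, 391, and 327 CPM at ZT 10 and 987, 838, 774, and 492 CPM at ZT 22, with no overlap. The amplitude was 0.36 (SE 0.06) with a peak at ZT 19.96 in cdHFD Hep-Bmal1WT and 0.38 (SE 0.12) with a peak at ZT 22.1 in cdHFD Hep-Bmal1KO. The call in cdHFD Hep-Bmal1KO was lost at an adjusted p, in a cosinor on variance-stabilized values or on log2 CPM, and without replicate 1, 2, or 4, and that in chow Hep-Bmal1WT was lost without replicate 1. In chow Hep-Bmal1KO it was 0.26 (SE 0.10), outside the criterion. All 4 groups had their lowest mean of Cyp2c70 at ZT 10, and the same held for Cyp2c29, whose amplitudes of 0.23 to 0.57 did not meet the criterion. In cdHFD Hep-Bmal1KO every member except Cyp2c44 had its lowest mean at ZT 10. A male library there had the lowest share of reads in the members of all 96 libraries, 0.0407%. The library with neither sex signal is also in that group.

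**Figure D4:**
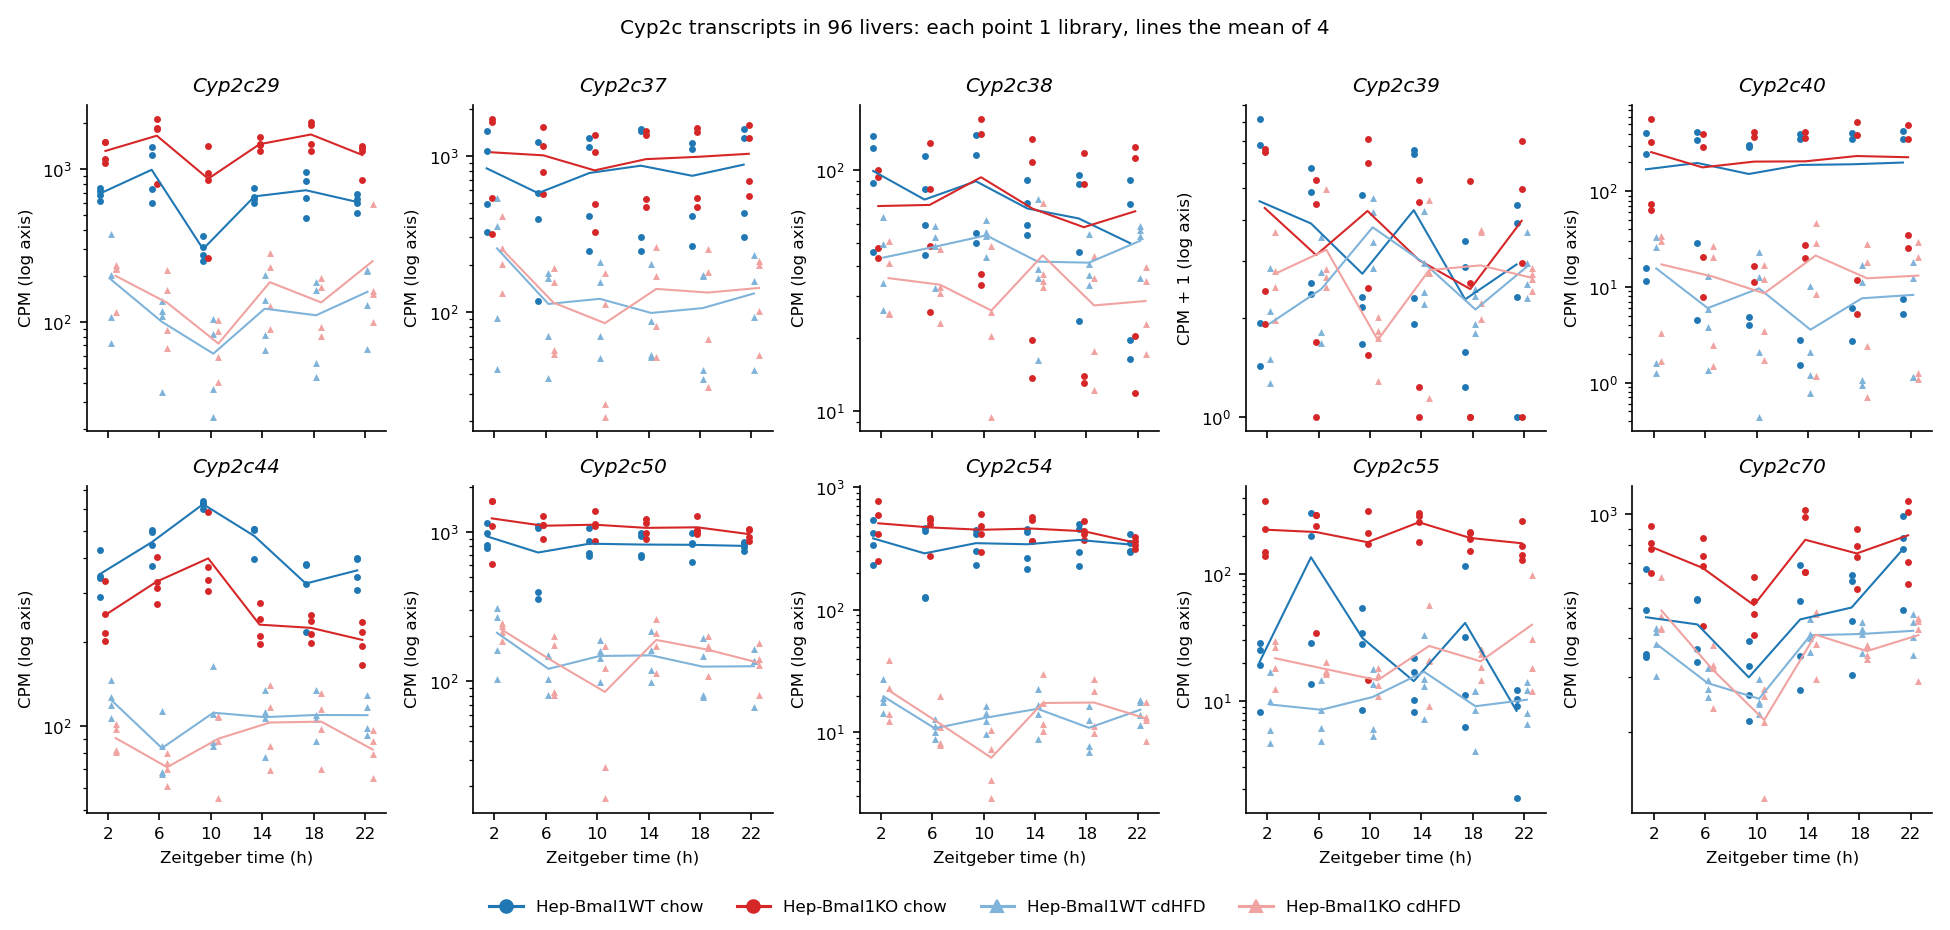
CPM of each of the 10 members on a log axis (CPM plus 1 for Cyp2c39) against zeitgeber time (h), each point 1 of 96 libraries, lines the mean of 4 libraries for each genotype and diet. The cdHFD lines run below the chow lines for Cyp2c54, Cyp2c50, and Cyp2c44 at all 6 ZTs, and points scatter over more than a 10-fold range within a group for Cyp2c40.

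Sex was tested over the 49 male and 47 female libraries in a fit that held genotype, diet, and ZT. Of the 10 members 6 were higher in females on average over the 4 groups and none was lower, beside 10.9% of all 15548 genes called higher in females. The median log2 fold change, females over males, was 0.49 for the members and 0.01 for all genes. In single groups the count of members higher in females was 5 in chow Hep-Bmal1WT, 4 in chow Hep-Bmal1KO, 5 in cdHFD Hep-Bmal1WT, and 5 in cdHFD Hep-Bmal1KO, where 7.72%, 6.52%, 1.53%, and 1.21% of all genes were called higher.

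The share of reads that did not align differed between the sexes on chow. Its medians in males and females were 27.1% and 19.9% in chow Hep-Bmal1WT (ranges 17.4% to 34% and 17.6% to 23.3%) and 22.2% and 17.5% in chow Hep-Bmal1KO, against 17.8% and 17.3% and 17% and 16.9% in the cdHFD groups. With this share as a further term, a fit chosen after seeing the data, Cyp2c37, Cyp2c38, Cyp2c39, Cyp2c40, and Cyp2c50 were still higher in females over all groups, while Cyp2c29 was at 0.21 (adjusted p = 0.29) in place of 0.42 (adjusted p = 0.000184) and Cyp2c55 was lower (-1.13, SE 0.22, adjusted p = 5.69e-05). The genes called over all groups were then 1981 in place of 3108.

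Cyp2c40 had the widest gap. In chow Hep-Bmal1WT the 12 males ranged from 1.53 to 28.6 CPM with a median of 5.04, and the 12 females from 247 to 431 CPM with a median of 355. Females were thus higher by a log2 fold change of 5.61 (SE 0.28, adjusted p = 5.99e-30). In chow Hep-Bmal1KO the males ranged from 5.18 to 72.8 CPM and the females from 287 to 563 CPM (log2 4.21, SE 0.25, adjusted p = 6.74e-25). The sexes did not overlap in any of the 4 groups. On cdHFD the levels were lower in both sexes, with medians of 1.21 and 13 CPM in Hep-Bmal1WT males and females and of 1.69 and 27.4 CPM in Hep-Bmal1KO, and the log2 fold changes were 3.37 (SE 0.33, adjusted p = 3.97e-13) and 3.45 (SE 0.29, adjusted p = 2.72e-16). Male medians on cdHFD lay above the level of 3 reads, which was 0.267 to 0.549 CPM in the cdHFD libraries. The lowest cdHFD Hep-Bmal1WT male, at 0.441 CPM, lay within that range.

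Cyp2c37 was 3.30-fold higher in females over all groups (log2 1.72, SE 0.09, adjusted p = 1.14e-28). Its female and male means were 1213 ± 296 and 343 ± 125 CPM (n = 12 each) in chow Hep-Bmal1WT and 1420 ± 193 and 523 ± 130 CPM (n = 12 each) in chow Hep-Bmal1KO. The log2 fold change lay between 1.46 and 1.89 in the 4 groups, and the sexes did not overlap in chow Hep-Bmal1KO and in cdHFD Hep-Bmal1WT. The sex difference of Cyp2c37 did not pass the test by genotype (adjusted p = 0.717) or by diet (log2 difference 0.18, 95% interval -0.16 to 0.53, adjusted p = 0.616).

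Cyp2c38 was 2.33-fold higher in females over all groups (log2 1.22, SE 0.08, adjusted p = 6.17e-22). In chow Hep-Bmal1KO its males ranged from 11.9 to 48.2 CPM and its females from 83.8 to 163 CPM, without overlap. In chow Hep-Bmal1WT the ranges were 16.4 to 88.4 and 72.3 to 140 CPM, and they overlapped. The log2 fold change was 2.20 (SE 0.17, adjusted p = 2.48e-18) in the former and 1.19 (SE 0.17, adjusted p = 2.54e-08) in the latter, and 0.94 and 0.56 in cdHFD Hep-Bmal1KO and Hep-Bmal1WT (adjusted p = 7.3e-05 and 0.0389). The last of these was lost without the libraries of any single replicate number, with adjusted p-values of 0.0819 to 0.453.

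The difference of the sex folds between genotypes passed the test for Cyp2c38 alone of the 10, beside 0.167% of all genes. It was 0.70 (SE 0.17, adjusted p = 0.0448), and it missed the threshold without the library labelled female that carried neither sex signal (0.65, adjusted p = 0.0665) and without replicate 2, 3, or 4. For the other 9 members the adjusted p was 0.196 or higher. With the unaligned share in the fit it was 0.78 (adjusted p = 0.00744).

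Cyp2c39 was 2.97-fold higher in females over all groups (log2 1.57, SE 0.16, adjusted p = 9.33e-14). On chow the female medians were 3.84 and 4.31 CPM and the male medians 0.927 and 0.388 CPM in Hep-Bmal1WT and Hep-Bmal1KO, so the male values rest on a few reads per library. The log2 fold change of 2.11 (SE 0.32, adjusted p = 3.96e-07) and of 2.96 (SE 0.33, adjusted p = 2.25e-11) on chow stood against 0.30 (SE 0.30, adjusted p = 0.743) and 0.92 (SE 0.29, adjusted p = 0.0898) on cdHFD.

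**Figure D5:**
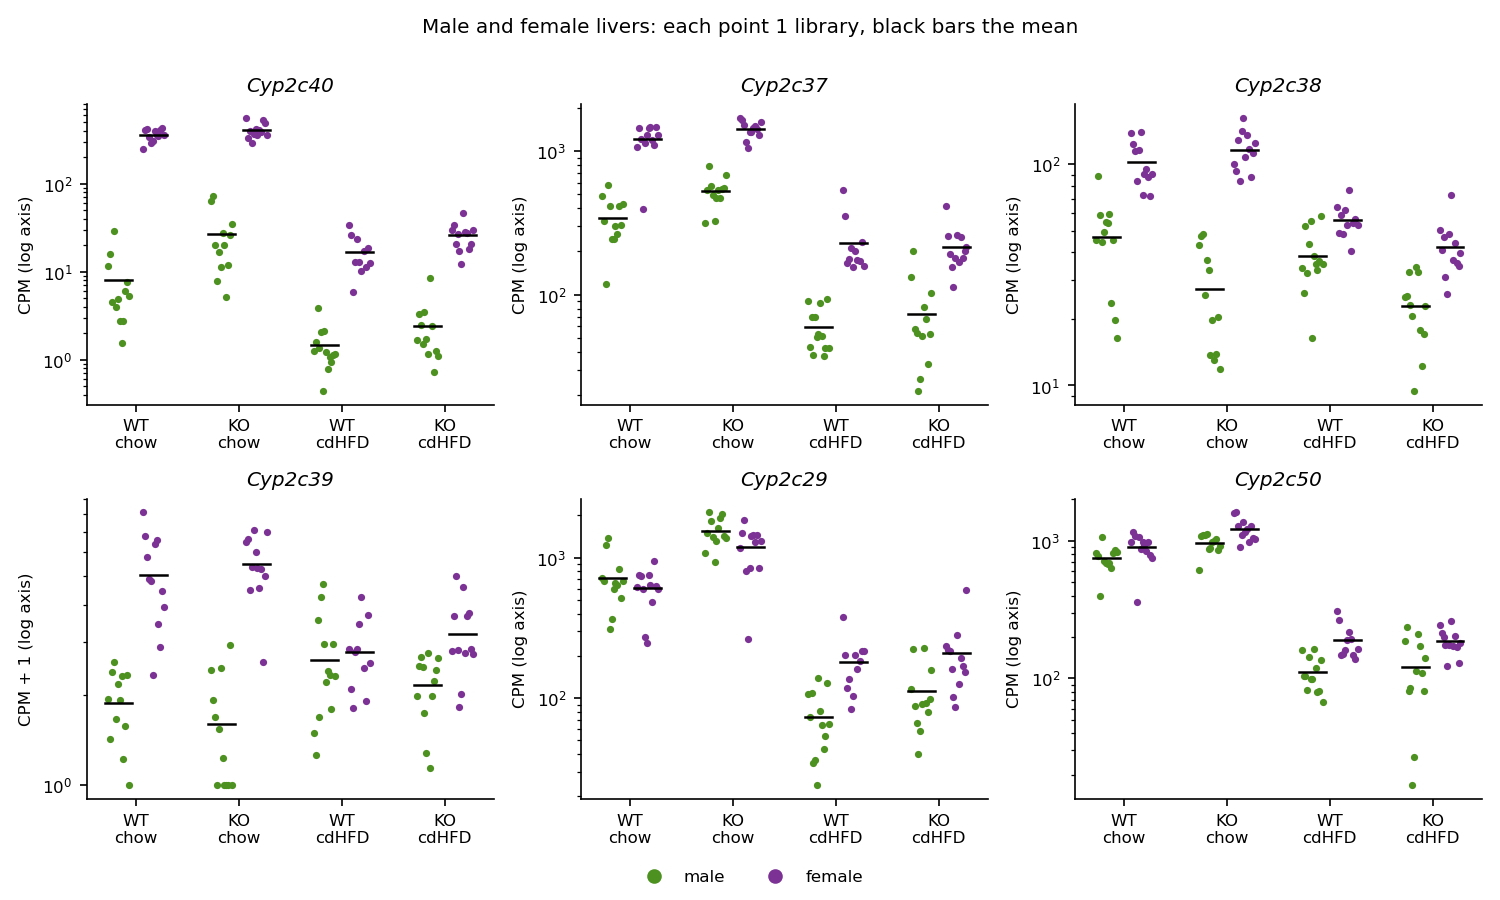
CPM on a log axis (CPM plus 1 for Cyp2c39) of the 6 members that passed the test of sex over all groups, in male and female livers of each genotype and diet, each point 1 library and black bars the mean. For Cyp2c40 male and female points do not overlap in any of the 4 groups, and for Cyp2c29 the female points lie higher on cdHFD and not on chow.

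Cyp2c29 and Cyp2c50 passed the test of sex in both genotypes on cdHFD and in neither on chow. Both calls in cdHFD Hep-Bmal1KO were lost without replicate 1 (adjusted p = 0.0774 and 0.0673). The call of Cyp2c50 in cdHFD Hep-Bmal1WT was lost without replicate 4 (adjusted p = 0.0507). On chow Cyp2c50 passed in Hep-Bmal1KO fitted alone (adjusted p = 0.0385) and without the filter in both genotypes (adjusted p = 0.0191 and 0.002). Without the filter Cyp2c29 in chow Hep-Bmal1KO was lower in females (adjusted p = 8.21e-06). The SEs on chow in that fit were 0.08 for both genes, in place of 0.18 for Cyp2c29 and 0.16 for Cyp2c50. Nothing is therefore read from the calls without the filter. In chow Hep-Bmal1WT Cyp2c29 had 718 ± 313 CPM in males (n = 12) and 607 ± 199 in females (n = 12), a log2 fold change of -0.20 (SE 0.18, adjusted p = 0.522), and in chow Hep-Bmal1KO it was -0.42 (SE 0.18, adjusted p = 0.123). In cdHFD Hep-Bmal1WT the means were 73.9 ± 37 CPM in 13 males and 182 ± 79.8 CPM in 11 females, a log2 fold change of 1.38 (SE 0.19, adjusted p = 6.09e-08). In cdHFD Hep-Bmal1KO they were 112 ± 61 and 211 ± 131 CPM (log2 0.93, SE 0.18, adjusted p = 0.000467). Cyp2c50 had log2 fold changes of 0.80 (SE 0.16, adjusted p = 0.0009) and 0.85 (SE 0.17, adjusted p = 0.000551) on cdHFD, and of 0.26 (SE 0.16, adjusted p = 0.309) and 0.32 (SE 0.16, adjusted p = 0.213) on chow.

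The change of the sex fold with diet, tested as an interaction over both genotypes, passed for 5 members, beside 8.19% of all genes. It was 1.47 (SE 0.18, adjusted p = 1.51e-09) for Cyp2c29 and 0.53 (SE 0.16, adjusted p = 0.0257) for Cyp2c50, so that females were higher relative to males on cdHFD than on chow. It was -1.93 (SE 0.32, adjusted p = 4.95e-06) for Cyp2c39, -1.50 (SE 0.30, adjusted p = 0.000265) for Cyp2c40, and -0.95 (SE 0.17, adjusted p = 1.89e-05) for Cyp2c38, so that the gap was narrower on cdHFD. For Cyp2c50 it was lost without the 7 libraries (0.43, adjusted p = 0.0835) and without replicate 2, 3, or 4 (adjusted p = 0.237, 0.101, and 0.139). For Cyp2c40 it was lost without replicate 1 (-1.07, adjusted p = 0.0827). With the unaligned share in the fit it was lost for Cyp2c38 (-0.55, adjusted p = 0.0871) and Cyp2c50 (0.48, adjusted p = 0.197), and Cyp2c55 was called (2.23, SE 0.41, adjusted p = 9.15e-05). Cyp2c54 had -0.51 (SE 0.20, adjusted p = 0.106), and -0.63 without the 7 libraries (adjusted p = 0.0253).

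The other 4 members did not pass the test of sex over all groups. The 95% intervals of the log2 fold change were -0.06 to 0.16 for Cyp2c44, -0.09 to 0.15 for Cyp2c70, -0.01 to 0.38 for Cyp2c54, and -0.65 to 0.10 for Cyp2c55. In chow Hep-Bmal1WT alone Cyp2c54 had 284 ± 89.4 CPM in males and 409 ± 110 in females (log2 0.52, SE 0.18, adjusted p = 0.0452), a call that was lost in DESeq2 (adjusted p = 0.0565), with the unaligned share in the fit (adjusted p = 0.30), and without the libraries of any single replicate number. Cyp2c55 in that group had a median of 26.9 CPM in males and 9.68 in females (log2 -1.13, SE 0.42, adjusted p = 0.057), and -1.64 (SE 0.29, adjusted p = 1.39e-05) without the 7 libraries. With the unaligned share in the fit Cyp2c55 was lower in females on chow in both Hep-Bmal1WT (-3.01, SE 0.48, adjusted p = 1.72e-06) and Hep-Bmal1KO (-1.48, SE 0.36, adjusted p = 0.00299), Cyp2c29 in Hep-Bmal1KO (-0.75, SE 0.21, adjusted p = 0.0117), and Cyp2c70 was higher in Hep-Bmal1WT (0.63, SE 0.17, adjusted p = 0.0118). Beside these folds 4 of 5 stellate, 4 of 4 endothelial, 3 of 6 pericentral, and 3 of 5 hepatocyte markers were higher in females. Their median log2 fold changes were 0.26, 0.24, 0.27, and 0.14, and 1 hepatocyte marker was lower. Of 6 periportal markers 1 was higher and 1 was lower. Of 5 Kupffer cell markers 2 were higher, and of 5 recruited macrophage markers 1 was. The part of these cells was not tested.

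The lists that follow were chosen with earlier results known, and nothing particular to them is read from their counts. Of all genes tested 27.3% were lower on cdHFD in Hep-Bmal1WT and 29.6% in Hep-Bmal1KO, 5.45% and 4.92% were lower and 7.08% and 4.75% higher in Hep-Bmal1KO on chow and on cdHFD, and 10.9% were higher and 9.06% lower in females. Of 5 further Cyp2c genes 3 passed the filter. Cyp2c69 was higher in females with a log2 fold change of 4.94 (SE 0.16, adjusted p = 4.69e-43), and Cyp2c67 was higher in males (-0.60, SE 0.05, adjusted p = 3.3e-16). All 3 were lower on cdHFD in both genotypes, with Cyp2c67 at -1.46 (SE 0.12, adjusted p = 4.49e-15) in Hep-Bmal1WT and -2.04 (SE 0.15, adjusted p = 2.69e-17) in Hep-Bmal1KO. On chow none of the 3 passed the test of genotype, and on cdHFD Cyp2c67 was lower in Hep-Bmal1KO (-0.36, SE 0.08, adjusted p = 0.000912).

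The genes that feed electrons or heme to P450 enzymes were followed as a list of 6. On cdHFD all 6 were lower in Hep-Bmal1WT and 4 of 6 in Hep-Bmal1KO, among them Cyb5b, an outer mitochondrial membrane cytochrome b5, at -1.47 (SE 0.06, adjusted p = 2.53e-25) in Hep-Bmal1WT. In Hep-Bmal1KO 1 was lower on chow and 3 on cdHFD and none was higher. Por, the P450 oxidoreductase on which all Cyp2c enzymes depend, had 310 ± 135 CPM in chow Hep-Bmal1WT and 178 ± 96.1 in chow Hep-Bmal1KO (log2 -0.73, SE 0.15, adjusted p = 0.000667).

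Among 10 genes of epoxide and eicosanoid metabolism, 8 were lower and 1 was higher on cdHFD in Hep-Bmal1WT, and 7 were lower and 1 was higher in Hep-Bmal1KO. The epoxygenase Cyp2j5 was at -1.68 (SE 0.06, adjusted p = 1.53e-29) and -2.23 (SE 0.07, adjusted p = 2.29e-30), and Cyp4a31, of the fatty acid omega-hydroxylase family, at 1.49 (SE 0.16, adjusted p = 5.04e-11) and 1.34 (SE 0.17, adjusted p = 1.96e-09). For genotype 3 were higher and 1 was lower on chow, and 1 was higher and 3 were lower on cdHFD. Ephx2, the soluble epoxide hydrolase that degrades the epoxides, was lower in Hep-Bmal1KO on both diets, at -0.27 (SE 0.09, adjusted p = 0.035) on chow and -0.33 (SE 0.06, adjusted p = 0.000194) on cdHFD.

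Of 12 transcription factors that act on Cyp2c genes, 5 were lower in Hep-Bmal1KO on chow and 7 on cdHFD and none was higher on either diet. On cdHFD 11 were lower in Hep-Bmal1WT and 9 in Hep-Bmal1KO. Hnf4a, a regulator of hepatocyte identity, was at -0.29 (SE 0.06, adjusted p = 0.00115) for genotype on chow and -0.81 (SE 0.06, adjusted p = 8.2e-17) for diet in Hep-Bmal1WT. Nr1i3, which encodes CAR, was among 3 of the 12 that were higher in females (0.57, SE 0.06, adjusted p = 1.7e-11).

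In the list of 6 growth hormone and sex-linked regulators, 4 were higher and 1 was lower in females, led by Cux2, a female-specific repressor, at 2.995 (SE 0.26, adjusted p = 2.12e-16), and by Bcl6, a male-biased repressor, at -0.74 (SE 0.21, adjusted p = 0.00665). Ghr, the growth hormone receptor, was lower on cdHFD, at -1.56 (SE 0.05, adjusted p = 2.96e-29) in Hep-Bmal1WT and -1.84 (SE 0.08, adjusted p = 1.54e-26) in Hep-Bmal1KO. Of genes known to be sex-biased in mouse liver, 5 of 5 male-biased genes were lower and 4 of 5 female-biased genes were higher in females. All 5 male-biased genes were lower on cdHFD in both genotypes, and of the female-biased genes 4 were lower in Hep-Bmal1WT and 2 in Hep-Bmal1KO. For genotype 2 of the 5 female-biased genes were lower in Hep-Bmal1KO on chow, among them Cyp2a4 at -2.55 (SE 0.86, adjusted p = 0.0413).

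For each member the 2 most similar patterns outside the family were sought among 8988 genes, by Pearson r of log2 CPM over the 24 group means, points that all share the difference between diets. The highest r was 0.995 between Cyp2c54 and Apoa2. Cyp2c50 had 0.991 with Ugt3a2 and 0.991 with Apoa2, Cyp2c44 had 0.985 with Slc17a2, Cyp2c37 had 0.983 with Apoa2, and Cyp2c29 had 0.978 with Lamp2. For Cyp2c40 the first gene was Slco2a1 at 0.973, for Cyp2c55 it was Hectd2os at 0.963 followed by Hectd2 at 0.946, and for Cyp2c70 it was Apon at 0.934. Cyp2c38 reached 0.860, with Entpd8, and the sparse Cyp2c39 reached 0.685, with Man1a2.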

How the data were processed

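The authors sequenced 3′ ends by BRB-seq, separated libraries by barcode, ran STAR against mm10, and deposited unnormalized counts for each gene. HTSeq and FeatureCounts are both named for the counting, and whether reads of 1 molecule were collapsed is not stated. Unaligned reads (14.8% to 34.0% of entries) and reads outside genes (5.65% to 11.3%) were left out of library sizes. No identical pair of libraries was found. Genotype, diet, ZT, and sex came from the labels, and each library is 1 mouse.

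The members and the gene lists were chosen with earlier results of these data known. Genes with at least 100 counts in total were kept (15548). Counts were fitted with edgeR 4.0.16 (quasi-likelihood, TMM over all libraries) in R 4.3.3, with Benjamini-Hochberg adjustment over all genes kept and an adjusted p under 0.05 as the criterion, ZT as a factor, and sex effects per genotype and diet for the sex tests. Amplitudes came from a least squares cosinor on values variance-stabilized by DESeq2 1.42.0. CPM are TMM-scaled, and a prior count of 2 was added for log2 CPM. The edgeR fits were tested on simulated data. Limits set by depth cover counting error alone. Alternatives were DESeq2, its size factors, other filters, a sex covariate, single sexes, and leaving out each replicate number. Replicates are the libraries of a group numbered in listed order. In every chow group and most cdHFD groups replicates 1 and 2 were male and 3 and 4 female. Leaving out a replicate number therefore also unbalances the sexes. Further alternatives were chosen after seeing the data. They were leaving out libraries against their labels, library totals without TMM factors, and the unaligned share as a covariate of the sex tests. Named besides the members were the 2 genes with the most similar pattern and, per list and comparison, the gene with the smallest p in each direction. Positions are from RefSeq. Sequences are not used here.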

Additional observations from a re-analysis of the deposited data

Results flagged for a closer look

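In 240 groups of 4 libraries, 6 had 1 library far from the other 3 by Dixon's criterion, which chance flags in about 1 of 20 groups. In cdHFD Hep-Bmal1KO, Cyp2c29 had 116 CPM in 1 library at ZT 2 beside 221 to 236 CPM in the others, and 586 CPM at ZT 22 beside 99.3 to 159 CPM. In the same genotype and diet, Cyp2c38 had 73.04 CPM at ZT 14 beside 32.7 to 36.9 CPM, and Cyp2c39 had 3.97 CPM at ZT 6 beside 1.49 to 1.83 CPM. Cyp2c40 had 10.2 CPM in the only female of cdHFD Hep-Bmal1WT at ZT 14 beside 0.780 to 2.09 CPM in the 3 males. Cyp2c44 had 397 CPM in 1 chow Hep-Bmal1WT library at ZT 14 beside 504 to 509 CPM.

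The sex fold differed between genotypes for Cyp2c38, by 0.70 on the log2 scale. It differed between diets, cdHFD minus chow, by 1.47 for Cyp2c29, 0.53 for Cyp2c50, -0.95 for Cyp2c38, -1.93 for Cyp2c39, and -1.50 for Cyp2c40. The genotype fold differed between diets by 0.41 for Cyp2c44, -1.77 for Cyp2c55, and -0.61 for Cyp2c70, values that belong to the levels by which the members were chosen and carry no test.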

How the results depend on the processing

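Of 797 values of members' called folds under the alternatives, 796 kept their direction, the exception being Cyp2c70 for diet in Hep-Bmal1WT, 0.089 without the TMM factors. Of 880 sex folds of members under the alternatives, 819 stayed on their side of the threshold, 28 lost their call, and 33 gained it.

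Counts of genes called moved by more than 1.5 times as follows, and the cause was not tested. For sex by genotype 26 genes became 88 with DESeq2, 308 without the filter, 78 without the 7 libraries against the genotype label, and 15 without the library against the sex label, where no member was called. For sex in cdHFD Hep-Bmal1KO 268 genes became 498 without the filter and 415 without the 7 libraries. Without the filter 8 members were called for sex in each genotype on chow and 4 for sex by genotype. The counts of all genes for sex on chow then stayed within 1.5 times of 2198 in Hep-Bmal1WT and 1745 in Hep-Bmal1KO. The SE of Cyp2c70 for sex in chow Hep-Bmal1KO was 0.08 in that fit in place of 0.12, so nothing is read from these counts. For genotype on chow 8 members were called with sex in the fit and 9 in males alone, beside 14.8% and 11% of all genes. On cdHFD 5 were called with sex in the fit, beside 10.8% of all genes. Level by genotype was part of the selection, so these counts are a description. Genes called for genotype were 546 on chow in females alone, and 794 and 654 on cdHFD in males and females alone. For genotype by diet they were 146 in females alone and 919 without the 7 libraries. Rhythmic genes at an adjusted p were 676 in chow and 592 in cdHFD Hep-Bmal1KO, and in the latter Cyp2c70, the only member called there, was not rhythmic by a cosinor on variance-stabilized values, by one on log2 CPM, or at an adjusted p. With the unaligned share in the fit the genes called for sex were 1981 over all groups and 1097 in chow Hep-Bmal1WT.

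Leaving out each replicate number in every group gave numbers of called genes of 1852 to 2304 for sex over all groups (in place of 3108), 1069 to 1584 for sex in chow Hep-Bmal1WT (in place of 2198), 914 to 1188 for sex in chow Hep-Bmal1KO (in place of 1745), 171 to 239 for sex in cdHFD Hep-Bmal1WT (in place of 447), 100 to 147 for sex in cdHFD Hep-Bmal1KO (in place of 268), 0 to 20 for sex by genotype (in place of 26), 517 to 821 for sex by diet (in place of 1273), 938 to 1612 for genotype on chow (in place of 1948), 535 to 1382 for genotype on cdHFD (in place of 1503), and 103 to 355 for genotype by diet (in place of 473). It gave numbers of called members of 3 to 4 for sex in cdHFD Hep-Bmal1WT (in place of 5), 3 to 5 for sex in cdHFD Hep-Bmal1KO (in place of 5), 0 to 1 for sex by genotype (in place of 1), 1 to 2 for genotype on cdHFD (in place of 3), and 0 to 3 for genotype by diet (in place of 3). It gave numbers of rhythmic members of 1 to 3 for chow Hep-Bmal1WT (in place of 2), 1 to 3 for cdHFD Hep-Bmal1WT (in place of 1), and 0 to 3 for cdHFD Hep-Bmal1KO (in place of 1). It gave numbers of rhythmic genes of 906 to 944 for chow Hep-Bmal1KO (in place of 1403), 1515 to 2004 for cdHFD Hep-Bmal1WT (in place of 2496), and 798 to 1005 for cdHFD Hep-Bmal1KO (in place of 1318).

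No paired analysis was possible because the labels give no replicate numbers, only an identifier for each mouse. Depth limits Cyp2c39 in males, whose median levels on chow lie near that of 3 reads per library. It also limits Cyp2c40 in males on cdHFD, with medians of 1.21 and 1.69 CPM beside 0.267 to 0.549 CPM for 3 reads.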
